A study of Mus musculus with 4 samples.

Results

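The genes described here are Foxl2 and 9 further genes of granulosa cell identity or function, measured in whole mouse testes in which Dmrt1 was conditionally deleted. They are Foxl2, Cyp19a1, Hsd17b1, Esr1, Esr2, Greb1, Nr5a2, Runx1, Msx1 and Gng13, taken as a list of names, with every transcript that the array holds for each. Each had 1 transcript on the array, so 10 transcripts stood for 10 genes, of 17277 genes that could be named among 25631 transcripts. The groups were 3 Dmrt1 KO arrays, labelled Cre-positive and numbered 1 to 3 below, and 1 Control array, labelled Cre-negative. Both groups carry the label DHH-cre and come from male testes at postnatal day 9. The strain, the floxed allele and the number of animals behind each array are not given in the sources used here, so the spread between the Dmrt1 KO arrays may be technical. Desert hedgehog, whose promoter drives this Cre, is made by Sertoli cells, and germ cells, which also express Dmrt1, remain part of whole-testis RNA. In such bulk RNA, fewer cells of a type and less RNA per cell cannot be told apart.

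Granulosa cells are the supporting cells of the ovarian follicle and share an origin with the Sertoli cells of the testis. The forkhead factor FOXL2 keeps granulosa cells in their state in the adult ovary, whereas SOX9 and DMRT1 keep Sertoli cells in theirs. In the mouse, loss of Dmrt1 after birth is known to let Sertoli cells take on granulosa features in the adult testis. The question here was whether genes of the granulosa side already differed at day 9.

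No granulosa gene passed the test at day 9. limma, with Benjamini-Hochberg adjustment over all transcripts, called 0 of the 10 genes at an adjusted p under 0.05, where 0.655% of all transcripts were called. At an unadjusted p under 0.05 it had 1, Cyp19a1, against 6.42% of all transcripts. Data from 4 arrays with a single control are imprecise, and a missed threshold does not show that a gene stayed at its control level. The smallest difference that passed for any transcript was 1.35 on the log2 scale, while the largest among the 10 genes was 0.72.

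The deleted gene itself, Dmrt1, had log2 intensities of 13.23, 13.38 and 13.66 in Dmrt1 KO arrays 1, 2 and 3, against 14.16 in the Control array. All 3 Dmrt1 KO arrays lay below the Control, but the difference of -0.73 did not pass (limma, adjusted p = 0.586). The probes may lie outside the deleted part, so the value need not check the labels. Defining markers of testis cells were bright in both groups. Sox9, the Sertoli factor, lay at 12.29, 12.71 and 12.66 in the Dmrt1 KO arrays and 13.11 in the Control array, and Ddx4, a germ cell helicase, at 14.67, 14.68 and 14.58 in the Dmrt1 KO arrays and 14.39 in the Control array. Over all transcripts, Dmrt1 KO array 3 was the nearest of the 3 to the Control, with a median absolute log2 difference of 0.215, against 0.25 and 0.259 for arrays 1 and 2.

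Upstream sequence is shown for a pair of the genes: Foxl2, the defining factor, and Cyp19a1, the one gene with an unadjusted p under 0.05. The sequences are from RefSeq on build GRCm38.p6, the 250 bases before an annotated gene start, read 5′ to 3′ on the strand of the gene. Capitals mark ACATTGT, the reverse complement of ACAATGT, which is a core of the motif bound by DMRT1. The Foxl2 window is at chr9:98955357-98955606 on the plus strand, and the Cyp19a1 window at chr9:54193744-54193993 on the minus strand, the last of 3 windows annotated along that gene.
Foxl2: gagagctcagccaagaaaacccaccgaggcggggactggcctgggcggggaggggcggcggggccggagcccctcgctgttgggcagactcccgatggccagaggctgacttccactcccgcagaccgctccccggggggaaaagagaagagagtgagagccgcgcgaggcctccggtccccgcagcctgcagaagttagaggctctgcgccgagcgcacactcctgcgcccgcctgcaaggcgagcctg
Cyp19a1: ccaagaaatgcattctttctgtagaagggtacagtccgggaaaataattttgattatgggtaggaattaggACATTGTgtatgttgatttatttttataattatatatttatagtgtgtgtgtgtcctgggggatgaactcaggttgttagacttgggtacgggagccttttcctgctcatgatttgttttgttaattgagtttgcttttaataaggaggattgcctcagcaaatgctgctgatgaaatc

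The Foxl2 window was rich in G and C, at 70.8%, and the Cyp19a1 window was not, at 36.8%, with a median of 52.4% over all windows. Of the 10 genes, 9 had a window, 16 windows in all. ACAATGT, searched on both strands, occurred in 1 of the 16, the Cyp19a1 window above, with its first base 179 bases before the start, and in 2.56% of all 32851 windows. None of the 16 held the NR5A half-site AAGGTCA, present in 4.08% of all windows, or the forkhead core GTAAACA, present in 3.17%. None held the SOX core AACAATG, which shares ACAATG with the DMRT1 core and was present in 3.29% of all windows. These are matches of letters on both strands and say nothing of binding. Which of the 3 Cyp19a1 starts the array's probes report on is not known here.

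Foxl2 (NM_012020, chromosome 9) had log2 intensities of 9.54, 8.97 and 8.50 in Dmrt1 KO arrays 1, 2 and 3, against 8.53 in the Control array. On the linear scale these were 746.1, 501.6 and 361.7 in the Dmrt1 KO arrays and 368.8 in the Control array. Array 1 was well above the Control, array 2 moderately above it, and array 3 at its level, so the groups overlapped. The SD of the 3 Dmrt1 KO arrays was 0.52, and the difference of 0.48 ± 0.37 (SE) on the log2 scale did not pass (limma, adjusted p = 0.986). Without Dmrt1 KO replicate 1 the difference was 0.21, and without replicate 3 it was 0.73. The 95% interval ran from -0.34 to 1.30 on the log2 scale, or from 0.788-fold to 2.46-fold of the Control, with no adjustment for the number of transcripts. The spread of the 3 Dmrt1 KO arrays, 1.04 from lowest to highest, was wider than the difference itself.

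In the same arrays the Dmrt1 KO array with the highest Foxl2, array 1, had the lowest Dmrt1, and array 3 had the lowest Foxl2 and the highest Dmrt1. The 9 germ cell markers, whose summed intensity was 182683, 164448 and 160503 in Dmrt1 KO arrays 1, 2 and 3 and 155688 in the Control array, stood in the same order as Foxl2 among the Dmrt1 KO arrays, as did 4 of the 9 singly. The part of germ cell content in the Foxl2 values was not tested, and 3 arrays are too few for a correlation. The share of all transcripts in the order of Foxl2 was not counted.

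**Figure D1:**
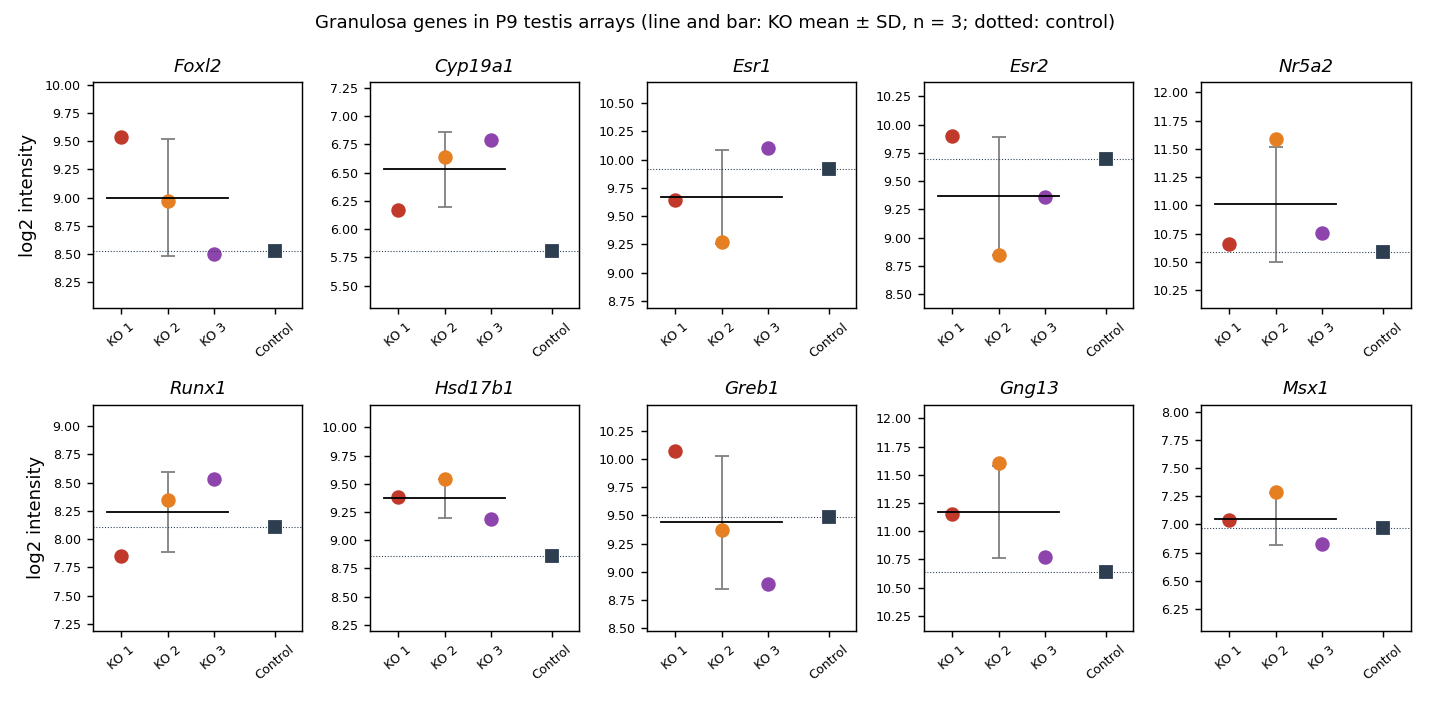
Log2 intensity (vertical axis, 1 panel per gene, all spanning the same range) of the 10 granulosa genes in the 3 Dmrt1 KO arrays (circles) and the Control array (square, with a dotted line at its level); the solid line is the Dmrt1 KO mean and the grey bar its SD (n = 3). For Foxl2 the 3 Dmrt1 KO arrays lay at 9.54, 8.97 and 8.50 and the Control at 8.53, and for Cyp19a1, Hsd17b1, Nr5a2 and Gng13 all 3 Dmrt1 KO arrays lay above the Control. Of all transcripts, 25.6% had all 3 Dmrt1 KO arrays above the Control.

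Among the enzymes of estrogen synthesis, Cyp19a1 had the largest difference of the 10 genes, with all 3 Dmrt1 KO arrays above the Control. Cyp19a1 (NM_007810, chromosome 9) encodes aromatase, which turns androgens into estrogens in granulosa cells and, in the testis, is also made by Leydig and immature Sertoli cells. Its log2 intensities were 6.17, 6.64 and 6.79 in Dmrt1 KO arrays 1, 2 and 3, against 5.81 in the Control array. All 3 Dmrt1 KO values were higher than the single Control value, as for 25.6% of all transcripts, and array 3 was the highest. The Dmrt1 KO mean was 6.53 ± 0.33 (SD, n = 3) and the difference 0.72 ± 0.30 (SE; limma, unadjusted p = 0.0372, adjusted p = 0.711). The interval ran from 0.05 to 1.40 on the log2 scale, or 1.04-fold to 2.63-fold.

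These Cyp19a1 levels were dim, at intensities of 71.8, 99.9 and 110.6 in the Dmrt1 KO arrays and 56.0 in the Control array, where the dimmest transcript of any array was at 23.9. No background measure was used here, so it is not known whether they lie above background. With 100 added to each intensity before the logarithm, the difference was 0.31 (limma, adjusted p = 0.899; over all its alternatives 0.409 to 0.985). The 7 Leydig markers had summed intensities of 80265, 113641 and 125912 in Dmrt1 KO arrays 1, 2 and 3 and 84870 in the Control array, which is the order of Cyp19a1 among the Dmrt1 KO arrays and of 3 of the 7 singly. In array 1 the Leydig sum was 0.946-fold of the Control and Cyp19a1 was 0.36 above it on the log2 scale, at the dim intensities given above. The part of Leydig cells in the Cyp19a1 values was not tested, and the share of all transcripts in the order of Cyp19a1 was not counted.

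Hsd17b1 (NM_010475, chromosome 11), the enzyme that turns estrone into estradiol, had the tightest Dmrt1 KO values of the 10 genes. They were 9.38, 9.54 and 9.19 in Dmrt1 KO arrays 1, 2 and 3, against 8.86 in the Control array. Every Dmrt1 KO array was higher than the Control, by 0.52, 0.67 and 0.33. The Dmrt1 KO mean was 9.37 ± 0.17 (SD, n = 3), and the difference of 0.51 ± 0.27 (SE) did not pass (limma, adjusted p = 0.869), with an interval of -0.09 to 1.10.

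The estrogen receptors gave no common direction. Esr1 (NM_007956, chromosome 10), the receptor ERα of theca, Leydig and peritubular cells, had log2 intensities of 9.64, 9.27 and 10.10 in Dmrt1 KO arrays 1, 2 and 3, against 9.92 in the Control array. Arrays 1 and 2 were below the Control and array 3 above it. Esr2 (NM_010157, chromosome 12), the receptor ERβ that prevails in granulosa cells, was at 9.90, 8.85 and 9.36 in the Dmrt1 KO arrays, against 9.70 in the Control array. Here array 1 was above the Control and the other two were below it. The differences were -0.25 ± 0.33 for Esr1 and -0.33 ± 0.37 for Esr2 (SE), the only ones of the 10 more than 0.1 below 0, and neither passed (limma, adjusted p = 0.999 each). Without Dmrt1 KO replicate 2 the differences were -0.05 for Esr1 and -0.08 for Esr2. Esr1 was at -0.47 without replicate 3 and Esr2 at -0.60 without replicate 1. Their intervals reached down to -0.99 for Esr1 and -1.15 for Esr2, and up to 0.48 for both.

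Greb1 (NM_015764, chromosome 12), a gene induced by estrogen through its receptor, had the widest Dmrt1 KO values of the 10. They were 10.07, 9.37 and 8.89 in Dmrt1 KO arrays 1, 2 and 3, against 9.49 in the Control array. Array 1 was 0.58 above the Control and array 3 0.59 below it, with array 2 between them. The difference of -0.04 ± 0.39 (SE) did not pass (limma, adjusted p = 1.00) and turned to 0.23 without Dmrt1 KO replicate 3.

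**Figure D2:**
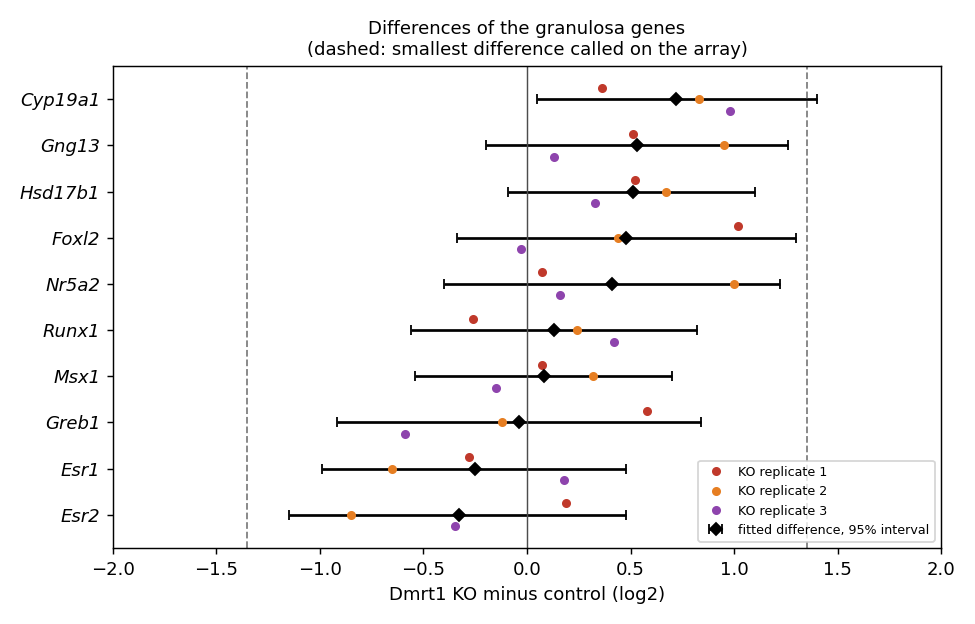
Log2 difference from the Control array (horizontal axis) for each granulosa gene, with the 3 Dmrt1 KO arrays as coloured circles and the limma difference with its 95% interval as a black diamond and bar. The dashed lines mark 1.35, the smallest difference called for any transcript, and all 10 diamonds lie between them, from -0.33 for Esr2 to 0.72 for Cyp19a1.

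Of the transcription factors beside Foxl2, Nr5a2 was higher in all 3 Dmrt1 KO arrays, nearly all of it in array 2. Nr5a2 (NM_030676, chromosome 1) encodes LRH-1, a nuclear receptor of granulosa cells that is needed for ovulation. Its log2 intensities were 10.66, 11.59 and 10.76 in Dmrt1 KO arrays 1, 2 and 3, against 10.59 in the Control array. Array 2 stood 1.00 above the Control, and arrays 1 and 3 were 0.07 and 0.16 above it. The difference was 0.41 ± 0.36 (SE; limma, adjusted p = 0.996), and it was 0.12 without Dmrt1 KO replicate 2. Its paralog Nr5a1, the steroidogenic factor shared by Sertoli, Leydig and granulosa cells, was at 13.17, 13.75 and 13.48 in the Dmrt1 KO arrays and 13.30 in the Control array, and also peaked in array 2.

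Runx1 (NM_009821, chromosome 16), a factor of fetal granulosa precursors and of blood cells, had log2 intensities of 7.85, 8.35 and 8.53 in Dmrt1 KO arrays 1, 2 and 3, against 8.11 in the Control array. Array 1 lay below the Control and arrays 2 and 3 above it. The difference of 0.13 ± 0.31 (SE) did not pass (limma, adjusted p = 0.999), and it was -0.01 without Dmrt1 KO replicate 3. Among 10 measured macrophage and blood markers, 8 were above the Control in all 3 Dmrt1 KO arrays, where 25.6% of all transcripts were. Ctss, a lysosomal protease of macrophages, was at 9.99, 10.35 and 10.50 in the Dmrt1 KO arrays and 9.57 in the Control array. Ctss was the 1 of the 10 markers with the order of Runx1 among the Dmrt1 KO arrays, and the part of blood cells in the Runx1 values was not tested. The summed Leydig markers and Cyp19a1 had this order too, and the share of all transcripts in it was not counted.

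Msx1 (NM_010835, chromosome 5), a homeobox factor of the fetal ovary, stayed closest to the Control. It was at 7.04, 7.29 and 6.83 in Dmrt1 KO arrays 1, 2 and 3, against 6.97 in the Control array. No Dmrt1 KO array differed from the Control by more than 0.32, the smallest such bound of the 10 genes. Msx1 was also dim, at intensities of 131.7, 157 and 113.5 in the Dmrt1 KO arrays and 125.5 in the Control array. Whether these lie above background is not known here. The difference was 0.08 ± 0.28 (SE; limma, adjusted p = 0.999), with an interval of -0.54 to 0.70, and it was -0.04 without Dmrt1 KO replicate 2.

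Gng13 (NM_022422, chromosome 17), a gamma subunit of heterotrimeric G proteins, was higher in every Dmrt1 KO array, most of all in array 2. Its log2 intensities were 11.15, 11.60 and 10.77 in Dmrt1 KO arrays 1, 2 and 3, against 10.64 in the Control array. The Dmrt1 KO arrays were 0.51, 0.95 and 0.13 above the Control, so array 3 was almost level with it. The difference was 0.53 ± 0.33 (SE; limma, adjusted p = 0.944), and it was 0.32 without Dmrt1 KO replicate 2 and 0.73 without replicate 3.

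Counted together, 4 of the 10 genes were above the Control in all 3 Dmrt1 KO arrays, namely Cyp19a1, Nr5a2, Hsd17b1 and Gng13, where 25.6% of all transcripts were. None was below the Control in all 3, where 24.1% of all transcripts were. None was at least 2-fold higher in all 3 Dmrt1 KO arrays, against 0.398% of all transcripts, and none at least 2-fold lower, against 0.753%. By array, 8, 7 and 6 of the 10 genes were above the Control in Dmrt1 KO arrays 1, 2 and 3, where 49.8%, 51.3% and 50.6% of all transcripts were. The median difference was 0.27 over the 10 genes and 0.00429 over all transcripts, on the log2 scale. With 10 genes chosen by name, these counts and medians are descriptions of them, with no test.

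**Figure D3:**
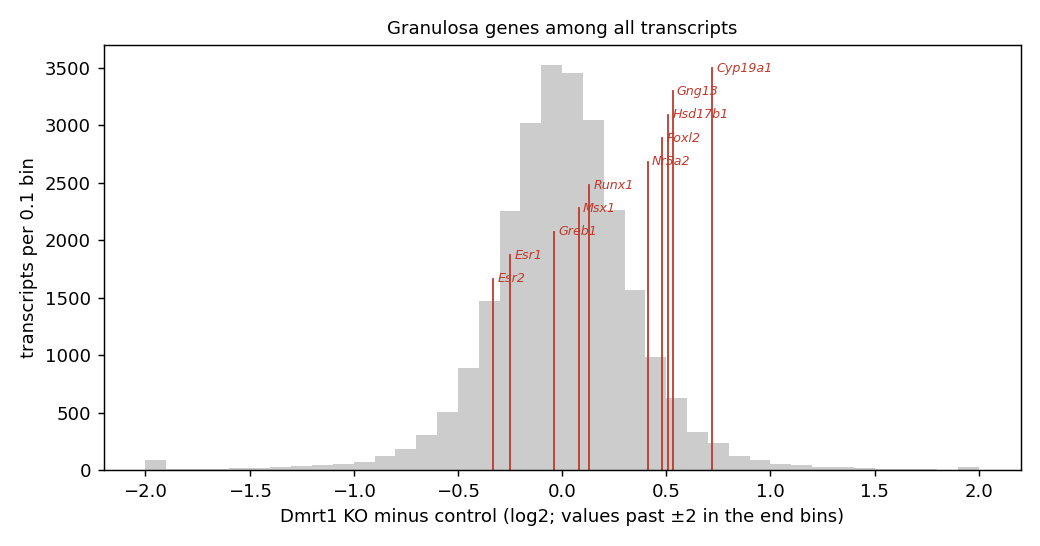
Number of transcripts (vertical axis, per bin of 0.1) by Dmrt1 KO minus control difference (horizontal axis, log2) for all 25631 transcripts in grey, with the 10 granulosa genes as red lines whose height has no meaning. The genes spread from -0.33 to 0.72, and 7 of the 10 lie above 0, where 50.6% of all transcripts do.

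In these genes the Dmrt1 KO arrays differed from each other more than arrays 1 and 3 did from the Control, and less than array 2 did. The median absolute log2 difference of the 10 genes was 0.473 to 0.498 between Dmrt1 KO arrays. From the Control it was 0.319, 0.663 and 0.253 for arrays 1, 2 and 3. The SD over the 3 Dmrt1 KO arrays had a median of 0.415 over the 10 genes and 0.21 over all transcripts. For 9 of the 10 genes it was above the median of transcripts in the same one of 4 equal bins of mean level, where those medians were 0.21, 0.24 and 0.22 for the 3 bins that hold the genes. For 7 of the 10 genes the SD was larger than the size of the difference from the Control. The exceptions were Cyp19a1, Hsd17b1 and Gng13. The share of all transcripts with an SD larger than their difference was not counted. Over all transcripts the median absolute difference from the Control was 0.196, near the median SD of 0.21.

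The 10 genes did not peak in the same Dmrt1 KO array. Foxl2, Esr2 and Greb1 were highest in array 1. Nr5a2, Hsd17b1, Gng13 and Msx1 were highest in array 2, and Cyp19a1, Esr1 and Runx1 in array 3. The median difference of the 10 was 0.275, 0.383 and 0.146 in arrays 1, 2 and 3.

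**Figure D4:**
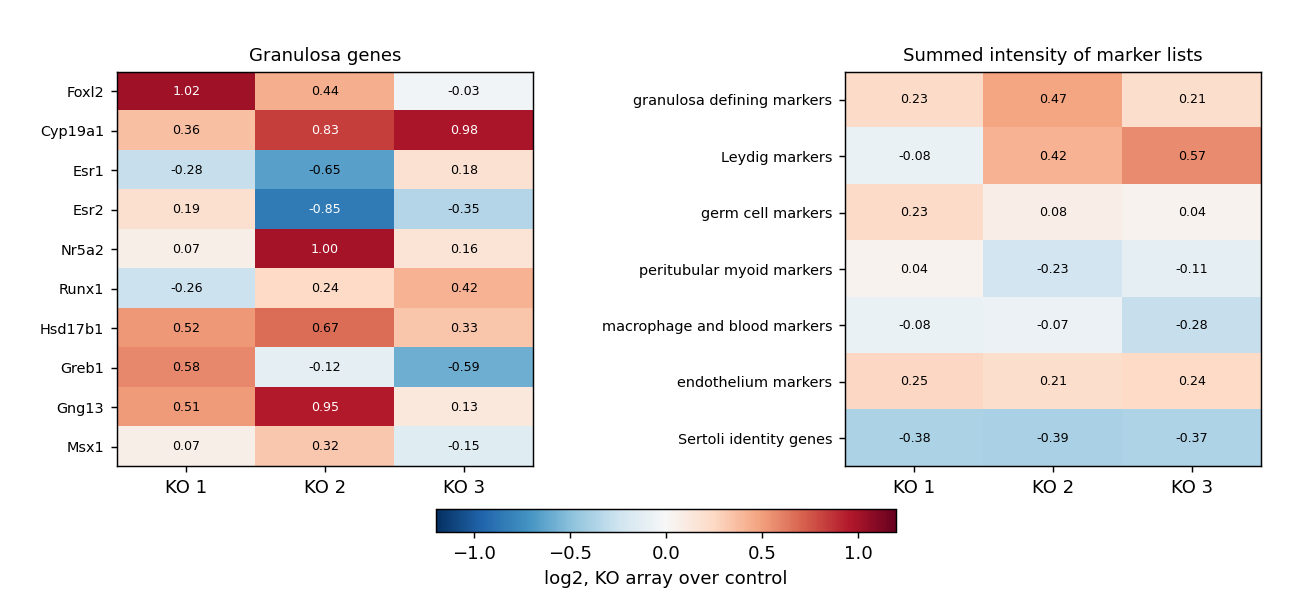
Log2 ratio of each Dmrt1 KO array (columns) over the Control for the 10 granulosa genes (left) and for the summed intensity of 7 marker lists (right), with red above and blue below the Control. Foxl2 was 1.02 above the Control in array 1 and 0.03 below it in array 3, Cyp19a1 ran the other way, and the Sertoli sum ran from -0.39 to -0.37 over the arrays. Most of the Sertoli gap lay in the 4 genes of that list called lower, and most of the rise of the granulosa defining markers in Inha. The macrophage and blood sum was below the Control with Gata1. Without Gata1, a choice made after seeing the data, it was above the Control in all 3 arrays.

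The genes whose levels followed Foxl2 most closely were Clgn, Sec11c, Patl2, Magea6 and Clmp. The measure was Pearson's r in log2 intensity over the 4 arrays, among 2208 transcripts that spanned at least 1 on the log2 scale, and it ran from 0.9951 for Clmp to 0.9986 for Clgn. Clgn, an endoplasmic reticulum chaperone of male germ cells, was at 13.07, 12.36 and 11.82 in Dmrt1 KO arrays 1, 2 and 3 and at 11.78 in the Control array. Patl2, an RNA-binding protein of oocytes, was at 9.81, 8.78 and 7.74 in the Dmrt1 KO arrays and 7.71 in the Control array. None of the 5 passed the test (lowest limma adjusted p = 0.897, for Patl2). With only 4 arrays a high r is easily reached, and 75 of the 2208 transcripts had one over 0.95. Of the 9 other granulosa genes, Greb1 was the most like Foxl2, at 0.85, and Runx1 the least, at -0.72.

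The wider set of ovarian somatic genes did not pass either, and the 3 with the smallest p were lower in the Dmrt1 KO arrays. limma called 0 of 35 measured genes, with 7 at an unadjusted p under 0.05, where 6.42% of all transcripts were. The median difference was -0.06. Irx3, an Iroquois homeobox factor of granulosa cells, was at 7.70, 7.33 and 8.32 in Dmrt1 KO arrays 1, 2 and 3, against 9.65 in the Control array (limma, adjusted p = 0.0575). Nr0b1, the nuclear receptor DAX1 of gonad and adrenal cells, was at 8.03, 8.22 and 8.25 in the Dmrt1 KO arrays, against 9.52 in the Control array (limma, adjusted p = 0.0531). Gpr37, an orphan G protein-coupled receptor, was at 7.10, 7.30 and 6.63 in the Dmrt1 KO arrays, against 8.17 in the Control array (limma, adjusted p = 0.23). For all 3 genes, every Dmrt1 KO array was below the Control. In this set 12 genes were above the Control in all 3 Dmrt1 KO arrays, where 25.6% of all transcripts were. Below it in all 3 were 10 genes, where 24.1% of all transcripts were. Both Irx3 and Nr0b1 passed with the dimmest 25% of transcripts removed (limma, adjusted p = 0.0388 and 0.0397). Irx3 also passed without Dmrt1 KO replicate 2 and without replicate 3 (limma, adjusted p = 0.0275 and 0.0095). Over all alternatives the adjusted p ran from 0.0095 to 0.262 for Irx3 and from 0.0368 to 0.154 for Nr0b1.

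Among 6 defining granulosa markers, which include Foxl2 and Cyp19a1, 0 passed limma's test. At an unadjusted p under 0.05 there were 3, Cyp19a1, Fshr and Inha, where 6.42% of all transcripts were. These 3 did not share a direction. Fshr, the receptor for follicle-stimulating hormone on granulosa and Sertoli cells, was at 10.01, 10.36 and 10.78 in the Dmrt1 KO arrays and 11.50 in the Control array (limma, adjusted p = 0.301). Inha, the inhibin alpha subunit of both cell types, was at 14.31, 14.51 and 14.21 in the Dmrt1 KO arrays and 13.71 in the Control array (limma, adjusted p = 0.698). The summed intensity of the 6 was 35452, 41673 and 34993 in the Dmrt1 KO arrays and 30160 in the Control array. Most of that rise lay in Inha, with intensities of 20250, 23320 and 19000 in the Dmrt1 KO arrays and 13370 in the Control array. The sum is therefore not a measure of the 6 markers alike.

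On the Sertoli side, genes did pass. Of 25 measured Sertoli identity genes 4 were lower, 1 was higher and 20 did not pass, with a median difference of -0.08. Over all transcripts 0.655% were called. This list was chosen with earlier results of these data known, so its count is a description and not independent support. Cst9, Defb36, Cldn11 and Gata1 fell, with differences of -2.89, -2.20, -1.72 and -1.55 on the log2 scale, while the keratin gene Krt18 rose by 1.73 (limma, highest adjusted p = 0.0248, for Gata1). With 100 added to each intensity none of these 5 passed (limma, lowest adjusted p = 0.061, for Krt18). Sox9, which opposes Foxl2, differed by -0.56 and did not pass (limma, adjusted p = 0.833). The summed intensity of the 25 genes was 264992, 263946 and 266404 in the Dmrt1 KO arrays, against 345100 in the Control array. Most of that gap lay in the 4 genes that fell. Cst9, Defb36, Cldn11 and Gata1 had intensities of 23210, 14440, 32650 and 32630 in the Control array. In the Dmrt1 KO arrays they reached at most 4409, 3979, 11080 and 11690. The difference between the Sertoli genes and the granulosa genes was not itself tested.

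The list of estrogen synthesis and action, which includes 5 of the 10 granulosa genes, gave 0 calls by limma among 31 measured, with a median of -0.02. Cyp19a1 and Hsd3b1, a Leydig enzyme that makes the precursors of androgens, were its 2 genes at an unadjusted p under 0.05. Without the 5 granulosa genes limma called 0 of 26, the median was 0.00, and 1 gene had an unadjusted p under 0.05. Hsd3b1 was at 14.60, 14.74 and 14.81 in the Dmrt1 KO arrays and 13.96 in the Control array (limma, adjusted p = 0.479). The 35 measured family relatives of the 10 genes gave 0 calls, 0 at an unadjusted p under 0.05 and a median of -0.02. Those with the smallest p were Gng12, Runx3 and Gng4, at -0.61, -0.73 and -0.45.

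**Figure D5:**
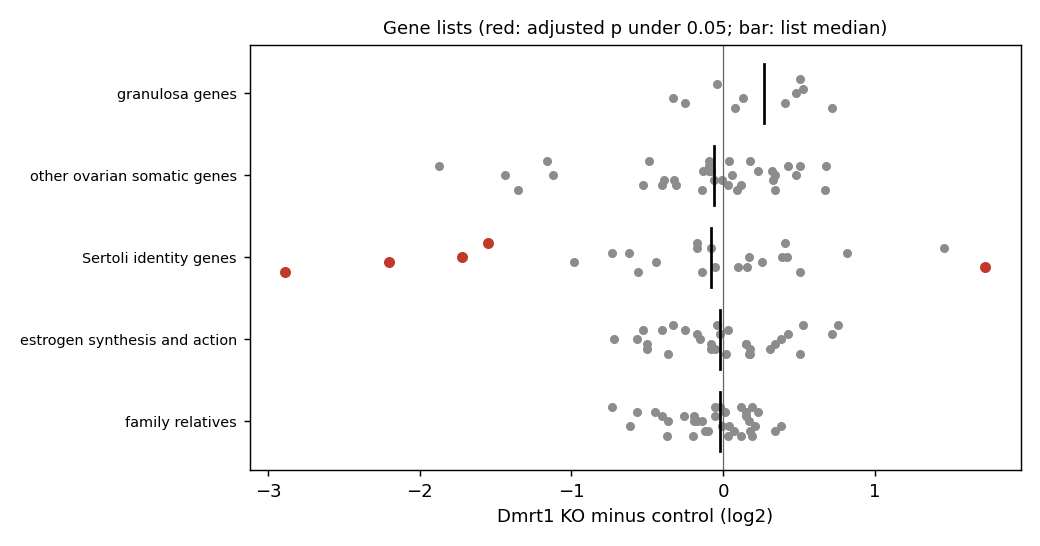
Dmrt1 KO minus control difference (horizontal axis, log2) of each measured gene, 1 point per gene, in the 10 granulosa genes and 4 further lists; red points passed limma's test and black bars are list medians. All red points are in the Sertoli list, with 4 below 0 and 1 above, and the median of the granulosa genes is at 0.27.

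Markers of other testis cells gave 1 call, Gata1, which the blood list shares with the Sertoli list. limma called 0 of 7 Leydig, 0 of 5 peritubular myoid, 0 of 9 germ cell, 0 of 6 endothelial and 1 of 10 macrophage and blood markers. In these lists 1, 2, 1, 0 and 3 markers had an unadjusted p under 0.05, where 6.42% of all transcripts did. Their median differences were 0.34, -0.09, 0.13, 0.12 and 0.43. The summed intensity of the myoid markers was 20691 to 24884 in the Dmrt1 KO arrays and 24221 in the Control array. That of the macrophage and blood markers was 58683 to 67827 in the Dmrt1 KO arrays and 71404 in the Control array. Without Gata1, a choice made after seeing the data, the other 9 summed to 56057, 57401 and 47238 in the Dmrt1 KO arrays and 38771 in the Control array, the opposite direction. The sum of the endothelial markers was 27533 to 28379 in the Dmrt1 KO arrays and 23861 in the Control array. No marker was listed at 0.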

How the data were processed

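The authors deposited 1 intensity per RefSeq transcript and array on a linear scale, made with RMA per the submitters' processing notes (a method of background correction, quantile normalisation and probe summary), from Cy3-labelled RNA on NimbleGen arrays per the labels' protocols. The sources used here give no settings of RMA. Intensities ran from 23.9 to 65156, with array medians of 1005 to 1011, and the number of arrays limits the precision. Log2 was taken with no pseudocount. Unversioned accessions were looked up in RefSeq's GRCm38.p6 gene table, which named 17780 of 25631 transcripts (69.4%). In lists, the brightest transcript stood for a gene. limma 3.58.1 in R 4.3.3 (lmFit, eBayes, two-sided, Benjamini-Hochberg over all transcripts) compared Dmrt1 KO with Control. The 2 residual degrees of freedom came from the Dmrt1 KO arrays, which means that the Control, with 1 array, was taken to have the same spread. An exact permutation test over 4 arrays cannot go below 0.25 (one-sided). Alternatives left out each Dmrt1 KO array, normalised or centred again, dropped the dimmest 25% of transcripts, added 100 before log2, changed the variance prior or averaged transcripts. The procedure was tested on simulated data with 1 Control and 3 Dmrt1 KO arrays. Of changes of 1 on the log2 scale, 2 of 50 passed, and of changes of 1.5, 20 of 50. Of changes of 2, 46 of 50 passed, and of 25431 unchanged transcripts 11 did. No change smaller than 1 was simulated, and all differences of the 10 genes were smaller. Genes were named by rule: the 10 genes, Dmrt1, Sox9, Nr5a1, list genes that passed, the 3 smallest p per list and the 5 most like Foxl2, predicted and RIKEN genes skipped. The members and lists were chosen with earlier results of these data known.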

Additional observations from a re-analysis of the deposited data

How the results depend on the processing

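None of the 10 granulosa genes passed in any of the 9 alternatives in which it was fitted, and the lowest adjusted p was 0.409 (limma). Removing the dimmest 25% of transcripts left 8 of them, without Cyp19a1 and Msx1. Of 88 refitted values, 85 kept their direction. Those that turned were Runx1 at -0.01 and Greb1 at 0.23, both without Dmrt1 KO replicate 3, and Msx1 at -0.04 without replicate 2. Leaving out each Dmrt1 KO array in turn, Runx1 ran from -0.01 to 0.33, Greb1 from -0.35 to 0.23, Msx1 from -0.04 to 0.20, Foxl2 from 0.21 to 0.73, Esr1 from -0.47 to -0.05, Esr2 from -0.60 to -0.08, Nr5a2 from 0.12 to 0.58 and Gng13 from 0.32 to 0.73. Cyp19a1 no longer had an unadjusted p under 0.05 without replicate 2, without replicate 3 or with 100 added. Foxl2 and Gng13 had one without replicate 3, where 2316 of 25631 transcripts did. Leaving out a Dmrt1 KO array, the count of granulosa genes below the Control in every remaining array was 0 to 2, and above it 4 to 6. The shares of all transcripts under these looser rules were not counted. In the same refits the calls among other ovarian somatic genes were 0 to 2. That ovarian count was 1 after quantile normalisation again, 1 with a variance trend, 2 with the dimmest 25% removed and 2 with a robust prior, against 0 as reported. With 100 added it was 0 for the Sertoli genes and 0 for the macrophage and blood markers (also 0 without Gata1, chosen after seeing the data), and 60 transcripts passed in all (9 higher), against 168 (40 higher). The higher calls were 62 without replicate 3 and 69 with a variance trend. The cause was not tested. No paired analysis was possible because there was 1 Control array, with no stated partner, and every alternative kept it.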
